A study of Mus musculus with 2 samples.

Results

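Vascular smooth muscle cells were taken from 2 single-cell RNA-seq libraries of the mouse cerebral cortex as cells in which Acta2, Myh11 and Tagln together made up at least 0.5% of the unique molecules (UMIs). The cells were thus chosen by measured levels of these 3 genes, after a filter for 300 or more genes and a mitochondrial share of no more than 25%. Each cell had to hold under 0.1% of Ccdc153, Tmem212 and Dynlrb2 (ependymal genes), under 0.4% of Col1a1, Col1a2 and Col3a1 (fibroblast collagens) and under 0.3% of Cldn5, Flt1, Ly6c1 and Slco1a4 (endothelial genes). The rule found 259 of 14265 kept cells, 245 in the library labelled N-PRα-KO and 14 in the library labelled WT. Because measured values chose the cells, the levels of Acta2, Myh11 and Tagln, and every comparison of these cells with another class, are descriptions.

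Smooth muscle cells wrap arteries, arterioles and veins and set vessel width. A rise in cytosolic calcium activates myosin light chain kinase, the kinase phosphorylates the regulatory light chain of myosin, and myosin then pulls on actin filaments. Myosin phosphatase, cyclic GMP and potassium channels oppose this. The cells take signals from endothelium, nerves and blood through many receptors, depend on NOTCH3 for their maturation, and in arteries lay down elastin. Pericytes are the related mural cells of capillaries and share many genes with them.

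The N-PRα-KO library came from mice of genotype Nestin-Cre;Pdgfra flox/flox and the WT library from C57BL/6J mice, which carry neither the Cre transgene nor the floxed allele. In both, cortex with its meninges was dissociated and sorted magnetically for CD140a, the protein of Pdgfra, before capture on the BD Rhapsody system. The series is about activated fibroblasts in a cortex with too little myelin, and smooth muscle cells came along with the sort. Nestin-Cre is used for its activity in the neural lineage, and these data do not show whether it acted in smooth muscle cells. How old the mice were, of which sex, and how many were pooled is not in the labels.

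Each genotype was sequenced as 1 library, which leaves the genotype differences without a replicate check, and no test was made. All intervals are 95% intervals of the counting error alone. Of 8336 barcodes with 41982217 UMIs in the N-PRα-KO library 4196 were kept, and of 11438 barcodes with 43459947 UMIs in the WT library 10069. The median kept cell held 5790.5 UMIs in the N-PRα-KO library and 3284 in the WT library. The libraries shared 105 barcodes, none of them a smooth muscle cell in both. Per the file headers, the pipeline version and run date differed between the libraries, so processing cannot be told apart from genotype. Among the N-PRα-KO smooth muscle cells 99 held Xist and no Y-linked UMI and 59 the reverse, against 9 and 0 in the WT library. Both kinds of UMI were found in 23 N-PRα-KO and 0 WT cells, and neither kind in 64 and 5. How far RNA of other cells entered these 23 cells was not tested. Sex cannot be told apart from genotype either.

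Smooth muscle cells were 5.84% of the kept cells of the N-PRα-KO library (245 of 4196, Clopper-Pearson interval 5.15 to 6.59) and 0.139% of those of the WT library (14 of 10069, interval 0.0760 to 0.233). The sort for CD140a and the cells it brought in set both denominators. Among mural cells alone, smooth muscle cells were 74.2% of the 330 smooth muscle cells and pericytes in the N-PRα-KO library (interval 69.2 to 78.9) and 35.9% of the 39 in the WT library (interval 21.2 to 52.8). Of smooth muscle, pericyte and endothelial cells together they were 35.1% (interval 31.5 to 38.7) and 9.93% (interval 5.54 to 16.1). The share among mural cells depended on the cut-offs in the WT library: it was 52.2% with a contractile minimum of 0.25% and 50% with a stricter pericyte class, against 78.9% and 80.1% in the N-PRα-KO library. WT cells were also shallower, and how far the sort or the depth set these shares was not tested.

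The N-PRα-KO smooth muscle cells held 1292211 UMIs, a median of 4573 per cell (2114 to 16464), and a median of 17.3% mitochondrial UMIs, against 14% over all kept cells of that library. The 14 WT cells held 42822 UMIs, a median of 2509 per cell (1304 to 6287), and 17.5% mitochondrial UMIs, against 13.1% over all kept cells. With so few WT UMIs, a count of 3 corresponds to 70.1 counts per 1000000 UMIs (CPM), and to 2.32 CPM in the N-PRα-KO cells. CPM were taken from UMIs summed over the cells of a class. They are not scaled for transcript length, so levels below are compared between cells for 1 gene and not between genes.

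The selection genes ranged widely among the cells. The summed share of Acta2, Myh11 and Tagln ran from 0.513% to 4.33% in N-PRα-KO cells, with a median of 1.71% and quartiles of 1.14% and 2.46%. In WT cells it ran from 0.604% to 1.63%, with a median of 0.782%. Just inside the limit, 7 N-PRα-KO cells and 0 WT cells lay between 0.5% and 0.6%, and just outside, 11 and 8 cells lay between 0.4% and 0.5%. The limits on other cell types removed 33 N-PRα-KO and 7 WT cells that passed the contractile minimum. Every WT cell therefore lay in the lower part of the N-PRα-KO range.

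**Figure D1:**
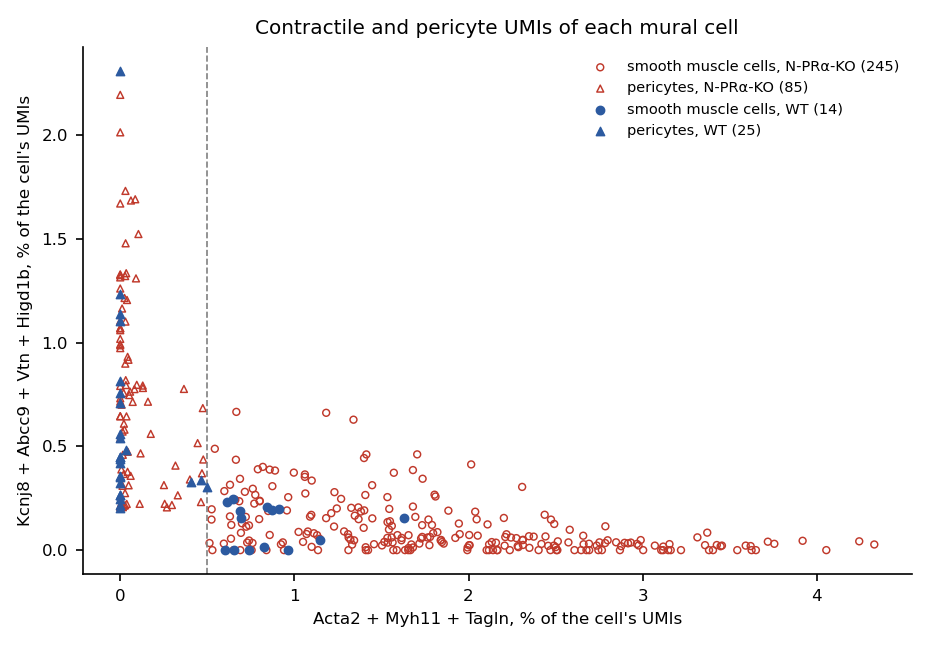
Each point is 1 smooth muscle cell or pericyte, placed by the summed share of Acta2, Myh11 and Tagln (x, % of its UMIs) and of the pericyte genes Kcnj8, Abcc9, Vtn and Higd1b (y, % of its UMIs), with N-PRα-KO cells open and WT cells filled. The dashed line is the 0.5% minimum; N-PRα-KO smooth muscle cells reach 4.33%, and the 14 WT cells lie between 0.604% and 1.63%.

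Acta2, the smooth muscle actin, lies at chr19:34241090-34255590 on the minus strand (GRCm38). It had 16.6, 110.3 and 310.5 UMIs per 10000 in the lowest, median and highest N-PRα-KO cell and 30.2, 57.3 and 112 in the WT cells. Myh11, the smooth muscle myosin heavy chain (chr16:14194535-14291372, minus strand), had 0, 18.9 and 77.6 in N-PRα-KO cells and 3.85, 13.7 and 25.5 in WT cells. Tagln, the actin-binding protein SM22 alpha (chr9:45929619-45936058, minus strand), had 3.21, 36.6 and 125 against 0, 7.82 and 25.5. The ranges of the libraries overlapped for all 3 genes, and the N-PRα-KO median was the higher each time. The fourth marker, Cnn1 (calponin, chr9:22099216-22109630, plus strand), was not used by the rule: 64 of 245 N-PRα-KO cells held a UMI of it, while 0 of 14 WT cells did. That is 26.1% of N-PRα-KO cells, 12.2% after every cell was thinned to 2000 UMIs (interval 8.42 to 17.0), against 0.733% and 0.421% in the fibroblasts of that library, whose median depth was 6295 UMIs. Of the WT cells 10 were deep enough to thin, and 0 of these 10 leaves an interval of up to 30.8%. Acta2, Myh11 and Tagln together chose the cells, so finding these 3 genes in either library adds nothing about cell identity. Cnn1, the marker outside the rule, was found in a minority of the N-PRα-KO cells and in 0 of the 14 WT cells. It had 0 UMIs in the 48 N-PRα-KO cells with the lowest summed shares of the 3 selection genes.

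The contractile machinery outside the rule was higher in smooth muscle cells than in the 85 pericytes of the N-PRα-KO library throughout the list. Of 24 such genes, 24 were at 20 CPM or more and higher in smooth muscle cells, 20 of them at least 2-fold, with a median log2 ratio of 2.27. Over all 7417 genes at that level, 40.7% were higher, 8.04% at least 2-fold, and the median was -0.14. Since the classes were chosen for their contractile UMIs, nothing is read from that count. Myl9, the regulatory light chain, stood at 3968 CPM in smooth muscle cells, 944 in pericytes, 143 in endothelial cells and 172 in fibroblasts. Tpm1 and Tpm2, tropomyosins that lie along the actin filament, were at 5082 and 1757 CPM against 864 and 214 in pericytes. Mylk, the kinase of the light chain, was at 2743 against 846 CPM (log2 ratio 1.70, interval 1.54 to 1.85). These genes were present in pericytes too, at lower levels.

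Other members were close to specific for smooth muscle cells among these classes. Actg2, the second smooth muscle actin, had 333 UMIs (258 CPM) in smooth muscle cells and 2 in pericytes, a log2 ratio of 5.85 (interval 3.99 to 8.90). Cnn1 had 137 against 1 UMIs, a log2 ratio of 5.57 (interval 3.07 to 10.88). The coding sequences of actin genes are alike, so reads assigned between Acta2 and Actg2 are uncertain. Lmod1 (leiomodin, which nucleates actin filaments) was at 234 against 31.2 CPM, Pdlim3 (an adaptor of the alpha-actinin anchor) at 128 against 8.93, Nexn (nexilin) at 308 against 37.9 and Des (the intermediate filament desmin) at 146 against 20.1. Cald1, the actin-binding protein caldesmon, differed less, with 4205 against 2484 CPM (log2 ratio 0.76). Smtn (smoothelin) had only 36.4 against 22.3 CPM, with an interval of the log2 ratio that spans 0 (-0.30 to 1.85). Itga8, an integrin chain, was lower than in fibroblasts (62.7 against 229 CPM), and its interval against pericytes also spanned 0 (-0.11 to 1.47). Against endothelial cells and against fibroblasts 23 of the 24 genes were higher each time, with medians of 3.43 and 3.71, beside 44.5% and 38.7% of all genes. Both classes had been chosen under a ceiling of Acta2, Myh11 and Tagln UMIs, so nothing is read from these counts either.

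**Figure D2:**
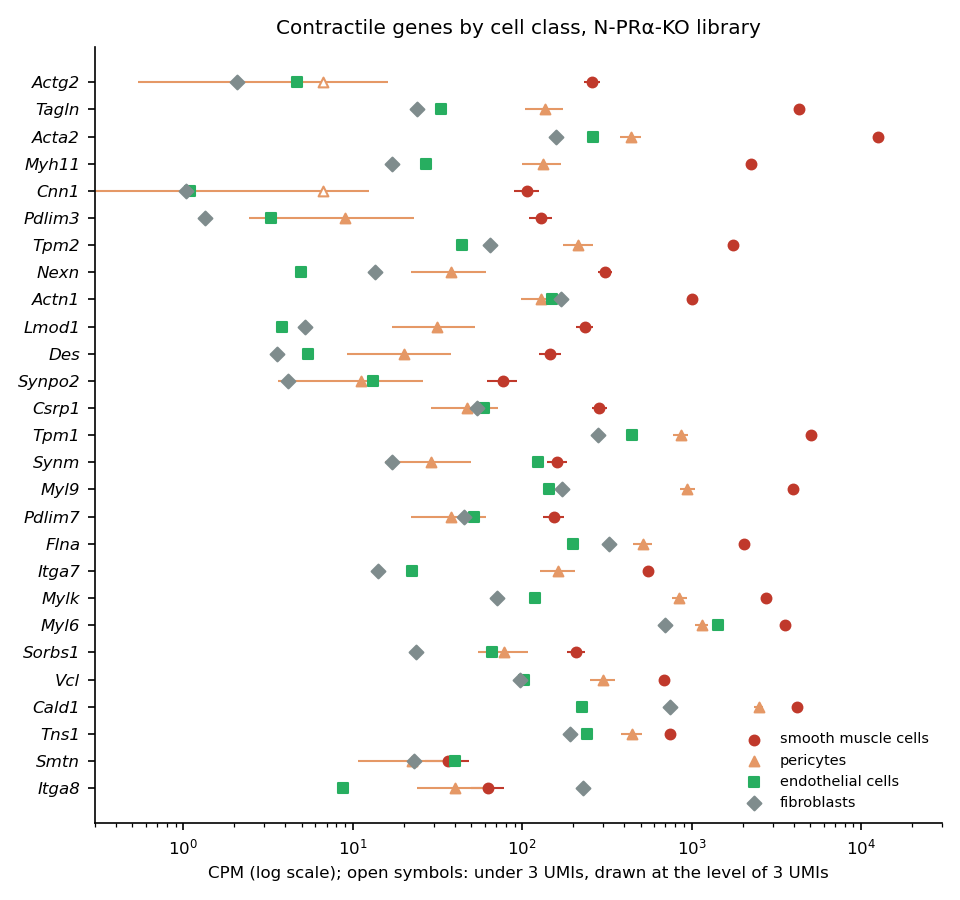
Levels in CPM (log axis) of the 3 selection genes and the 24 contractile genes outside the rule in 4 classes of the N-PRα-KO library, with bars as 95% counting intervals for smooth muscle cells and pericytes and open symbols for classes under 3 UMIs. The smooth muscle point lies above the pericyte point for each gene, from a log2 ratio of 0.64 for Itga8 to 5.27 for Actg2 (counts under 3 UMIs set to 3).

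The CArG box is the site bound by serum response factor, which with the coactivator myocardin drives contractile genes. It was searched on both strands of the RefSeq promoter windows (GRCm38.p6, 250 bases before to 50 after a gene's start), which held 21 of the 27 contractile and selection genes. It was present in 3 of 20 contractile genes with a window (15%), in 488 of 27025 genes over all promoters (1.81%) and in 96 of 4896 genes at 20 CPM or more in the N-PRα-KO smooth muscle cells (1.96%). The 250 bases before the start of these 3 genes are shown because they carry the box, in capitals, in genes whose protein products form or anchor the contractile apparatus. Positions are Myl6 chr10:128493010-128493259 (minus strand, box from base -50 of the start site), Myl9 chr2:156775214-156775463 (plus strand, from base -161) and Vcl chr14:20929148-20929397 (plus strand, from base -227).
Myl6: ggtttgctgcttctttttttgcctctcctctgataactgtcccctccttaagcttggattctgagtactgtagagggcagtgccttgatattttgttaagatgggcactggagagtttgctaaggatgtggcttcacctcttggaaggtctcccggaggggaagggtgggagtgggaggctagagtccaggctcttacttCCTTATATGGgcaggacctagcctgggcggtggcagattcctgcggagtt
Myl9: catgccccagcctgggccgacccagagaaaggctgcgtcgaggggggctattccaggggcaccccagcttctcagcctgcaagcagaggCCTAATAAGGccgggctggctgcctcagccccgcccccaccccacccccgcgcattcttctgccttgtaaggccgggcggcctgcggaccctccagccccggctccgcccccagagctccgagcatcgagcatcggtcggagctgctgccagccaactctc
Vcl: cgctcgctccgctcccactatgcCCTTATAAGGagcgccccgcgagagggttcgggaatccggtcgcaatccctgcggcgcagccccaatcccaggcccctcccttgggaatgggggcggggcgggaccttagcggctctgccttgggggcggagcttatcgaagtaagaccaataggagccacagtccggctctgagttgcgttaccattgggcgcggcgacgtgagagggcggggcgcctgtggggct
A match is a description of these letters, and its absence says only that the letters are not in the window. Myl6, the essential light chain, was at 3543 CPM in smooth muscle cells against 1149 in pericytes (log2 ratio 1.62, interval 1.49 to 1.76). Vcl, vinculin of the focal adhesion, was at 683 against 299 CPM (log2 ratio 1.19, interval 0.93 to 1.47). Both ratios, and that of Myl9 (2.07), lie below the median of the contractile list.

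Among transcription factors, 12 of 15 listed genes were at 20 CPM or more. Of these, 12 were higher in smooth muscle cells than in pericytes (median log2 ratio 0.52), beside 40.7% of all genes. Myocd, the gene of myocardin, had 63 UMIs (48.8 CPM) against 1 in pericytes (log2 ratio 4.45, interval 1.92 to 9.78), and 0.274 and 0.744 CPM in endothelial cells and fibroblasts. Srf itself stood at 8.51 CPM, under the level used for the list. Mef2c and Mef2d, partners in muscle gene control, were at 761 and 103 CPM against 353 and 37.9. Tbx18 (200.4 against 185), Ebf1 (410.1 against 388) and Tead1 (218 against 169.6 CPM) had intervals of the ratio that span 0. Myocd was thus the factor with the largest difference in this list.

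Notch genes gave 9 of 11 members higher, beside 40.7% of all genes, and a median of 0.29. Notch3, the Notch receptor of mural cells (chr17:32120820-32166852, minus strand), was at 1545 CPM against 1004 in pericytes and 73.6 in endothelial cells. Per cell it had 0, 15 and 56.9 UMIs per 10000 in the lowest, median and highest N-PRα-KO cell and 0, 9.07 and 21.6 in the WT cells. Both its ligand Jag1 (199 against 42.4 CPM) and its target Hey2 (175 against 40.2 CPM) differed from pericytes by more than the receptor did. Heyl, another target, was at 449 against 355 CPM, and Nrarp, a feedback inhibitor, at 206 against 78.1. Notch4, the endothelial receptor, was at 15.5 CPM against 155 in endothelial cells.

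Calcium handling differed between the mural types in both directions. In smooth muscle cells 12 of 17 members were higher, beside 40.7% of all genes, and 5 lower, with a median of 0.97. Pln, phospholamban, which restrains the calcium pump of the store, had 191 against 4 UMIs (148 against 8.93 CPM). The pump itself, Atp2a2, was at 1073 against 312 CPM (log2 ratio 1.78), and its relative Atp2a3 was the lower one at 99.1 against 310.2 (-1.65). Atp2b4, a calcium pump of the plasma membrane, was at 358 against 112 CPM, and Cacna1c, the pore of the L-type channel, at 122 against 67. Orai1, a calcium entry channel (25.5 against 55.8 CPM), was lower than in pericytes, while Stim1, the store sensor, was higher (160.2 against 80.3). Ryr2, a release channel of the store, had 27 UMIs in smooth muscle cells and 0 in pericytes, whose floor of 3 UMIs is 6.70 CPM. With the pericyte count set to that floor it was 3.12-fold higher, a ratio that is not a lower bound.

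Of the channel and connexin genes 4 of 10 were higher and 6 lower, near the 40.7% of all genes that were higher. The median of -0.28 had no settled sign: it was 0.29 with a mitochondrial limit of 50% and 0.000119 when mitochondrial and selection genes were left out of the scale. Kcnk3, a background potassium channel, was higher at 247 against 37.9 CPM (log2 ratio 2.70, interval 2.0 to 3.50). Kcnj8 and Abcc9, the pore and the regulator of the ATP-sensitive potassium channel, were at 17 and 20.9 CPM against 455 and 1265, but both had been used to choose the pericytes. Kcnmb1, the beta subunit of the calcium-activated potassium channel, had an interval that spans 0 (93.6 against 96 CPM, interval of the log2 ratio -0.55 to 0.50). Connexin genes split: Gja4 was at 200.4 against 143 CPM, Gjc1 at 443 against 641 and Gja1 at 54.2 against 176.

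Of the genes that set the calcium sensitivity of contraction, 12 of 17 were higher than in pericytes (median 0.85), beside 40.7% of all genes. The myosin phosphatase was represented by its targeting subunits Ppp1r12a (649 against 194 CPM) and Ppp1r12b (439.6 against 49.1) and its catalytic subunit Ppp1cb (292 against 107), which were all higher. Pde3a, a cyclic nucleotide phosphodiesterase, was at 1027 against 212 CPM, and Prkg1, the cyclic GMP-dependent kinase, at 219 against 55.8. Upstream of Prkg1, the guanylate cyclase subunits Gucy1a1 (333 against 341) and Gucy1b1 (344 against 328 CPM) had intervals that span 0. Rgs5, a regulator of G protein signalling found in all mural cells (chr1:169655501-169695813, plus strand), had the most UMIs in both libraries once mitochondrial and ribosomal protein genes were set aside. It was at 14590.5 CPM against 15909 in pericytes, and ran from 0 through a median of 127 to 628 UMIs per 10000 among N-PRα-KO cells and from 21.5 through 303 to 428 among WT cells.

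Of 21 listed receptor genes 13 reached 20 CPM, 8 higher and 5 lower than in pericytes, beside 40.7% of all genes higher. Their median was 1.24, which turned to -0.46 over the 6 members at 100 CPM or more. Npy1r, a neuropeptide Y receptor, had the highest level among these classes in smooth muscle cells (452 CPM, 141 in pericytes, 69.5 in fibroblasts). P2rx1, the ATP-gated channel of sympathetic transmission, was at 87.4 against 13.4 CPM, and Adra1b, an adrenergic receptor, at 34.1 against 8.93. The olfactory receptor genes Olfr558 (173 against 37.9 CPM) and Olfr78 (56.5 against 8.93) were higher too, with 6.84 and 0.547 CPM in endothelial cells. Htr1b, a serotonin receptor, was at 52.6 against 22.3 CPM and Ramp1, a subunit of the CGRP receptor, at 75.8 against 29.

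The receptors with the lower levels in smooth muscle cells were S1pr3 for sphingosine 1-phosphate (123 against 306 CPM), Tbxa2r for thromboxane (27.1 against 138), F2r for thrombin (148 against 201), Ednra for endothelin (161 against 225) and Npr1 for natriuretic peptide (11.6 against 20.1). Calcrl, the partner of Ramp1, stood at 15.5 CPM against 15.6. Ednrb stood at 40.2 CPM against 33.5. The remaining listed receptors stayed under 20 CPM in smooth muscle cells: Agtr1a for angiotensin (7.74), Adra1a (3.1), Avpr1a (1.55), P2rx4 (10.8) and Ptgir for prostacyclin (9.29). Adra1d and Htr2a had 0 UMIs, in cells where the floor of 3 UMIs is 2.32 CPM.

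Pdgfra, the sorted and floxed gene (chr5:75152292-75198215, plus strand), had 30 UMIs in the 245 N-PRα-KO smooth muscle cells (23.2 CPM) and 3 in the 14 WT cells (70.1 CPM). In the N-PRα-KO library it was at 62.5 CPM in pericytes, 49 in endothelial cells and 695 in fibroblasts. A UMI of it was found in 10.6% of N-PRα-KO smooth muscle cells (3.67% after thinning, interval 1.69 to 6.86), against 4.94% of thinned pericytes, 9.32% of thinned endothelial cells and 66.5% of thinned fibroblasts. In this library the share is below that of endothelial cells, a class not known for the gene. Whether it is background or expression was not tested. The median depths of these classes were 4573, 3796, 8414 and 6295 UMIs. In the WT library a UMI was found in 20% of the 10 thinned smooth muscle cells (interval 2.52 to 55.6), against 11.1% of thinned pericytes, 23.3% of thinned endothelial cells and 67.3% of thinned fibroblasts, and 3 UMIs do not tell expression from background there. Pdgfrb, the receptor of mural cells, was at 283 CPM in smooth muscle cells and 509 in pericytes (log2 ratio -0.85, interval -1.09 to -0.60).

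The ligand Pdgfa was higher in smooth muscle cells than in pericytes (416 against 100.4 CPM), endothelial cells (35.6) and fibroblasts (14.6). Pdgfb, the endothelial ligand, was at 59.6 CPM against 166 in endothelial cells. Tgfb2 and Tgfb3, ligands of the TGF-beta family, were at 354 and 199 CPM against 58 and 22.3 in pericytes, and Ltbp1, which anchors latent ligand in the matrix, at 158 against 20.1. Of the receptors, Tgfbr1 was lower (31.7 against 67 CPM), and Tgfbr2 (79.7 against 75.9) had an interval of the ratio that spans 0. Over the whole PDGF and TGF-beta list 10 of 17 members were higher and 7 lower (median 0.10), beside 40.7% of all genes higher.

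Matrix genes lay on both sides of the pericyte level. In the basement membrane list 6 of 14 members were higher and 8 lower (median -0.15), near the 40.7% higher and the median of -0.14 over all genes. Col4a1, a chain of the collagen of basement membranes, did not differ beyond counting error (3999 against 4109 CPM). Lama5, a laminin chain, was higher (363 against 46.9) and so was Col18a1, the source of endostatin (372 against 109). Lamb1 (102 against 511) and Nid1 (676 against 1632 CPM) were lower. In the elastic fibre and vessel-wall list 5 of 16 were higher and 11 lower (median -0.25, and 0.05 over members at 100 CPM or more). Eln, elastin (chr5:134702593-134747323, minus strand), was at 4728 CPM against 257 in pericytes, 1248 in endothelial cells and 639 in fibroblasts. The cross-linking enzyme Lox (385 against 71.4), the vessel-wall collagen Col8a1 (359.8 against 42.4) and the calcification inhibitor Mgp (1732 against 837 CPM) were higher too. The fibrillin and fibulin partners of elastic fibres were not: Fbn1 was at 58 against 78.1 CPM, Fbln5 at 34.1 against 55.8 and Emilin1 at 45.7 against 49.1, each with an interval of the ratio that spans 0.

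Genes linked to smooth muscle that has lost its contractile state ranged from absent to abundant. Spp1 was at 9.29 CPM, Lgals3 at 17.8, Mmp2 at 7.74 and Mmp3 at 0, and Ly6a at 41.8 against 1247 in endothelial cells. Of the 10 of 17 members at 20 CPM, 7 were higher and 3 lower than in pericytes (median 0.95), beside 40.7% of all genes higher. The intermediate filament gene Vim was at 4484 against 1082 CPM and the cyclin Ccnd1 at 377 against 196. Vcam1, an adhesion molecule, was lower (24 against 174 CPM).

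The genes with the highest ratio to pericytes outside the lists were Pi15 (a secreted peptidase inhibitor), Sorbs2 (an adhesion adaptor), Tinagl1 (a matrix protein), Stc2 (a secreted glycoprotein) and Rbm24 (an RNA-binding protein of muscle). Pi15 had 376 UMIs against 1 in pericytes (log2 ratio 7.03, interval 4.54 to 12.33). Tinagl1 was at 1139.9 against 53.6 CPM and Sorbs2 at 462 against 17.9, both also above endothelial cells (141 and 155). Stc2 had 151 against 2 UMIs and Rbm24 138 against 1, so their ratios rest on 1 or 2 pericyte UMIs. Endothelial cells and fibroblasts held each of Pi15, Stc2 and Rbm24 at under 7 CPM. The 15 genes with most UMIs in N-PRα-KO smooth muscle cells were Rgs5, Acta2, Actb, Igfbp7, Nrep, Sparc, Tpm1, Eln, Ptma, Vim, Sparcl1, Tagln, Cald1, Col4a1 and Myl9.

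At the other end stood Chp2 (a calcineurin-like calcium-binding protein, 2 against 64 UMIs), Abcc9, Sfrp2 (a Wnt antagonist, 4 against 79), Atp13a5 (a transport ATPase of pericytes, 16.3 against 899 CPM) and Nts (neurotensin, 3 against 32 UMIs). Others among the lowest were present in fibroblasts too: H19 was at 8.51 CPM in smooth muscle cells, 335 in pericytes and 217 in fibroblasts, Gjb2 at 10.8, 339 and 297, Slc6a20a at 27.1, 832 and 414, and Crabp2 at 0.774, 114 and 35.3. Slc22a2, Asgr1 and Lepr had 31.6, 39.7 and 66.5 CPM in fibroblasts. With a stricter pericyte minimum of 0.4%, which left 61 pericytes, the log2 ratio of H19 was -0.33, of Crabp2 -2.62 and of Gjb2 -3.40, against -5.30, -5.62 and -4.97 (counts under 3 set to 3).

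Pericyte markers were lower in smooth muscle cells for 12 of 12 genes, with a median of -2.15, beside 59.3% of all genes, in a comparison that 4 of them had defined. Art3, Ifitm1 and P2ry14, which had not, were at 61.1, 72 and 109.9 CPM against 479.9, 489 and 373. Ndufa4l2 (290.2 against 362) and Cspg4 (the NG2 proteoglycan, 293 against 391 CPM) differed little. Vtn, vitronectin, was found in 192 of 245 cells, with a median of 4.72 UMIs per 10000. The summed pericyte list was 2072 CPM in smooth muscle cells and 10191 in pericytes, and 24 N-PRα-KO smooth muscle cells held over 0.5% of it.

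Markers of other cell types were low but not absent, which bears on every level given here. Endothelial markers outside the rule (9 of 9 with a UMI, 5 at 20 CPM) summed to 622 CPM in N-PRα-KO smooth muscle cells against 7938 in endothelial cells, and fibroblast markers (10 of 10, 8 at 20 CPM) to 782 against 10838 in fibroblasts. Microglial markers (11 of 11, 7 at 20 CPM) summed to 793 CPM, ranging over cells from 0% to 1.03% of UMIs, and choroid plexus and red blood cell genes to 3229 CPM, with 1 cell at 7.77%. Most of the latter was Ttr, made by the choroid plexus, at 3157 CPM, and 1 cell held 1223 of its 4079 UMIs. Astrocyte markers summed to 3009 CPM, of which 1974 were Atp1b2, a gene at 2109 CPM in pericytes too. Striated muscle markers summed to 9.29 CPM, with Myh6, Ckm and Myl2 at 0. In WT smooth muscle cells 7 of 9 endothelial and 9 of 11 microglial markers were at 0, as were all 6 striated ones. Pericyte markers were not: 11 of 12 had a UMI there. They summed to 2475 CPM in WT smooth muscle cells, 2072 in the N-PRα-KO ones and 8114 in WT pericytes. Oligodendrocyte precursor markers summed to 152 CPM in N-PRα-KO and 304 in WT smooth muscle cells. Their part in the results was not tested beyond leaving out cells with over 0.5% of the microglial, endothelial or choroid list, which is given with the limits.

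Within the N-PRα-KO library the cells formed a gradient along their contractile share. The cells were split into 48 at 0.5 to 1%, 99 at 1 to 2% and 98 at 2% and over, with median depths of 3902.5, 4956 and 4593 UMIs and median mitochondrial shares of 15.9%, 16.5% and 18.2%. Since the bins use the rule's genes, what follows is a description. Eln went from 709.6 CPM in the lowest bin through 2754 to 8313 in the highest. Cnn1 went from 0 through 43.2 to 211 CPM, Actg2 from 40.9 through 129.5 to 473, and P2rx1 from 13.6 through 39.4 to 165. The same direction was seen in Ptgis, the prostacyclin synthase (9.1, 30 and 167 CPM), in Bst2, an antiviral membrane protein (40.9, 191 and 482), in Tgfb3 (50, 143 and 315) and in Synm, an intermediate filament protein (36.4, 122 and 248). Vim went the same way, from 1833 through 3698 to 6339.7 CPM.

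Other genes went the opposite way. Rgs5 went from 27742 through 18361 to 5509 CPM, Notch3 from 2256 through 1699 to 1103 and Vtn from 1492 through 1162 to 356. Casq2, calsequestrin, a calcium-binding protein of the store, went from 241 through 165 to 9.27 CPM, and Ano1, a calcium-activated chloride channel, from 505 through 315 to 139. Car4, a carbonic anhydrase, went from 350.2 to 37.1 CPM (pericytes 442) and Slc12a2, a chloride cotransporter, from 619 to 70.4 (pericytes 598). Adamts16, a metalloproteinase, went from 300.2 to 7.41 CPM, and its lowest bin lay above the pericytes (84.8). Rgs5, Notch3 and Casq2 were likewise above the pericyte level in the lowest bin, whereas Vtn, Art3 (205 against 479.9 CPM) and Higd1b (241 against 455) were below it. Ttr, the choroid plexus gene, also went down along the bins, with 7209.7, 3217 and 1445 CPM.

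**Figure D3:**
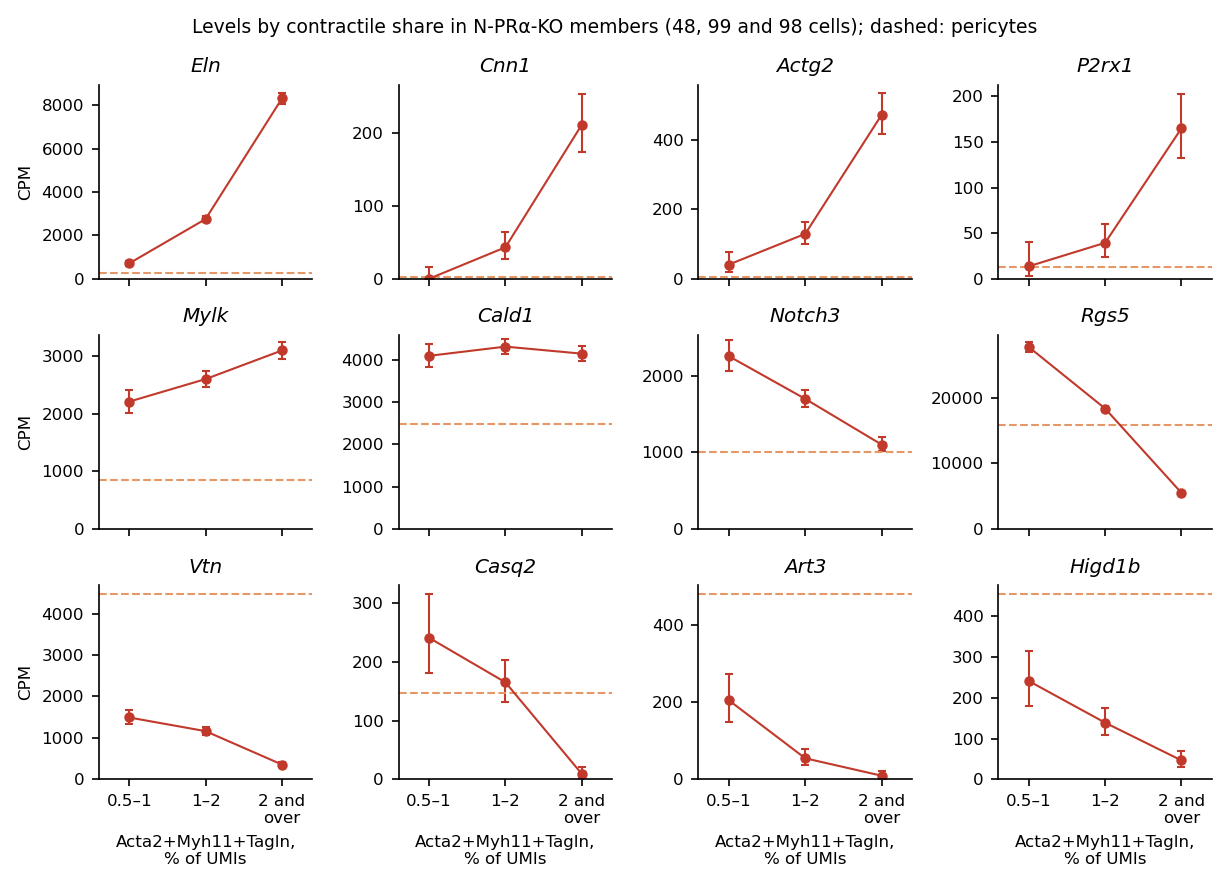
Each panel gives the CPM of 1 gene in N-PRα-KO smooth muscle cells binned by contractile share (48, 99 and 98 cells), with exact Poisson 95% intervals, and the level in pericytes as a dashed line. Eln, Cnn1, Actg2 and P2rx1 are highest in the top bin, Cald1 is flat, and Rgs5, Notch3, Vtn, Casq2, Art3 and Higd1b are lowest there.

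The contractile genes themselves did not all follow the gradient. Mylk rose along it, with 2211, 2602 and 3098 CPM from the lowest to the highest bin. No steady rise was seen for Cald1 (4094, 4312 and 4146 CPM), Itga7 (600.4, 599 and 493), Des (141, 152 and 143) or Myocd (45.5, 37.5 and 61.2). Over the 245 cells, each thinned to 2000 UMIs, Spearman's rank correlation with the contractile UMIs was 0.62 for Eln, 0.58 for Myl9, 0.58 for Tpm2, 0.56 for Tpm1, 0.39 for Cnn1 and -0.05 for Cald1. It was -0.63 for Rgs5, -0.42 for Notch3, -0.40 for Vtn and -0.30 for Casq2. These cells share 1 library and capture, and the values describe them without a test.

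Eln and Rgs5 ordered the cells in opposite directions. Eln ran from 0 through a median of 14.4 to 217 UMIs per 10000 among N-PRα-KO cells and was found in 209 of 245. Cells with more Eln than Rgs5 UMIs numbered 85 of 245 in the N-PRα-KO library (34.7%, interval 28.7 to 41.0) and 1 of 14 in the WT library (7.14%, interval 0.181 to 33.9). That WT cell held 43 of the 44 Eln UMIs of its class, 13 Rgs5 UMIs and a contractile share of 0.826%. The other 13 WT cells held 1 Eln UMI, or 27.2 CPM (interval 0.689 to 152). N-PRα-KO cells at 0.5 to 1% contractile share, the range of 12 of the 14 WT cells, had 709.6 CPM, and 403 (interval 321 to 500.5) without the cell that held 74 of their 156 Eln UMIs. The 12 WT cells at 0.5 to 1% had 1135 CPM, and 30.6 without the WT cell that held 43 Eln UMIs. Which genotype was the higher at 0.5 to 1% thus depended on that 1 WT cell. Over all cells Eln was higher in the N-PRα-KO cells, at 4728 against 1028 CPM. The 105 N-PRα-KO cells within the contractile range of the WT cells stood at 1437 CPM, also above 1028.

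**Figure D4:**
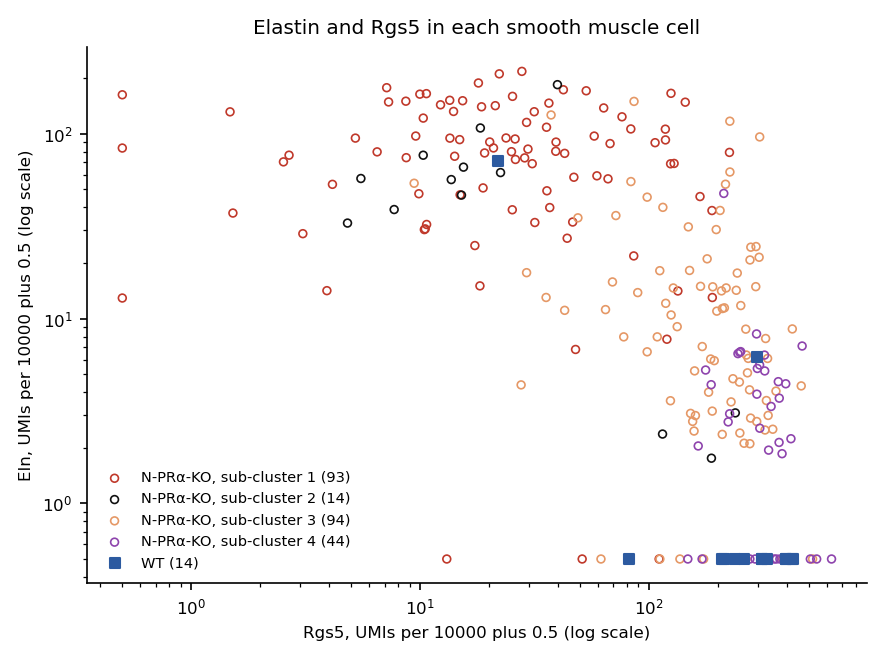
Each point is 1 smooth muscle cell placed by its Rgs5 (x) and Eln (y) UMIs per 10000 plus 0.5, both on log axes, with N-PRα-KO cells as circles coloured by sub-cluster and WT cells as squares. Eln exceeds Rgs5 in 85 of 245 N-PRα-KO cells and in 1 of 14 WT cells.

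Leiden clustering of the 245 N-PRα-KO cells, without the rule's genes, gave 4 sub-clusters at resolution 0.6, 3 at 0.3 and 6 at 1. The sub-clusters are called by number, and their leading genes describe them. Sub-cluster 1 (93 cells, median contractile share 2.51%) was led by Ptgis (174 CPM against 19.8 in the other cells), Cnn1 (207 against 34.4), Sh3bgr (183 against 33.1), Actg2 (483 against 97.8) and Eln (8653 against 1946). It was also led by the immediate early genes Atf3 (106 against 9.26 CPM) and Btg2 (286 against 35.7) and by P2ry12, a microglial gene of which 1 cell held 24 of 83 UMIs. Its median mitochondrial share was 18.5%. Sub-cluster 4 (44 cells, 1.06%) was led by Casq2 (499 against 37), Car4 (649 against 49.1), Art3 (245 against 25), Adamts16 (282 against 38.9), Higd1b (362 against 69.5) and the chemokine receptor Ackr3 (499 against 106 CPM). Kcnj8, Abcc9, Vtn and Higd1b made up a median of 0.266% of its UMIs, and its Rgs5 was at 32308 CPM against 4158 in sub-cluster 1.

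Sub-cluster 3 (94 cells, 1.45%) was led by Enpp2, Adgrf5 and Ttr, with Olfr558 (257 against 126 CPM), the endothelial receptor Cd93 (369 against 174) and Ccnd1 (554 against 279.5) further down. Enpp2 and Ttr are choroid plexus genes, and 1 cell held 82 of the 218 Enpp2 UMIs. Sub-cluster 2 (14 cells, 1.65%) was led by cell division genes: Mki67, a proliferation marker, was at 504 CPM against 5.8, Top2a, a topoisomerase, at 539.7 against 12.4, and Ube2c, which acts at mitotic exit, at 328 against 1.66. Cells with at least 10 UMIs of the 10 listed division genes numbered 6 of 245 in the N-PRα-KO library (2.45%, interval 0.904 to 5.25) and 2 of 14 in the WT library (14.3%, interval 1.78 to 42.8).

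In the WT library the same contrast with pericytes was taken over genes at 100 CPM or more, a level of about 4 UMIs. Of the 24 contractile genes 15 reached it and 14 were higher in the 14 smooth muscle cells than in the 25 WT pericytes, with a median log2 ratio of 1.96, beside 51.1% of 2278 genes and a median of 0.04. Myl9 was at 1985 against 445 CPM (log2 ratio 2.16), Tpm1 at 2756 against 589.9 (2.22), Mylk at 2359 against 602 (1.97) and Cald1 at 5978 against 3371 (0.83). The N-PRα-KO ratios of these genes were 2.07, 2.56, 1.70 and 0.76. Pericyte markers were lower for 10 of 12 genes (median -1.64, beside 48.9% of all genes), with Abcc9 at 1 against 199 UMIs. Kcnj8, Abcc9, Vtn and Higd1b had chosen the pericytes, so nothing is read from that count. Of the 12 genes, 5 had under 3 UMIs in 1 of the classes. Vtn was at 1168 against 1998 CPM (-0.78, and -2.35 in the N-PRα-KO library), and Rgs5 was at 26972 against 21621 (0.32). Immediate early genes were higher in smooth muscle cells for 13 of 13 genes in the WT library (median 1.18), beside 51.1% of all genes. In the N-PRα-KO library, at the lower level of 20 CPM, 13 of 18 were higher (median 0.31), beside 40.7% of all genes. That median was -0.20 with a mitochondrial limit of 15%.

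N-PRα-KO and WT smooth muscle cells were compared over the 2128 genes at 100 CPM or more in either, of which 40.7% were higher in the N-PRα-KO cells and 59.3% lower (median -0.27). At 20 CPM, which is under the WT floor of 70.1 CPM, 15.7% of 7891 genes came out higher and 84.3% lower. Contractile genes outside the rule were higher in N-PRα-KO cells for 19 of 21 members, with a median of 1.0, and 6 of the 21 had under 3 WT UMIs. In pericytes, endothelial cells and fibroblasts the same members had medians of -0.21, 0.12 and 0.64. At 20 CPM the median was 0.88, and it was -0.51 with a mitochondrial limit of 15%, which left 3 WT cells. Markers of some other cells were higher in the N-PRα-KO cells as well. They were 5 of 5 astrocyte markers (median 1.1, with 2 of the 5 under 3 WT UMIs) and Ttr of the choroid plexus (5.08). Microglial markers were higher for 4 of 4 (median 0.80, with 3 of the 4 under 3 WT UMIs). Fibroblast markers were higher for 2 of 3 (median 1.05, with 2 of the 3 under 3 WT UMIs), and 1 ependymal marker had 0.14. Endothelial markers were higher for 0 of 2 (median -0.70) and pericyte markers for 2 of 7 (median -0.33). The part of these markers in the contractile difference was not tested. Myl9 had 0, 38 and 93.8 UMIs per 10000 in the lowest, median and highest N-PRα-KO cell and 7.67, 14.4 and 34.7 in the WT cells. Cald1 had 7.07, 42.4 and 90.6 against 21.8, 65.2 and 91.3. The ranges of the libraries overlapped for both genes, with the higher median in N-PRα-KO cells for Myl9 and in WT cells for Cald1. Flna, the actin cross-linker filamin A, was at 2031 CPM in N-PRα-KO and 771 (33 UMIs) in WT cells, a log2 ratio of 1.40 (interval 0.90 to 1.94). Myl6 was at 3543 against 1495 (1.25), Myl9 at 3968 against 1985 (1.0) and Itga7 at 555 against 234 CPM (1.25). Cald1 (4205 against 5978, -0.51) and Vcl (683 against 1331 CPM, -0.96) were the 2 members that were lower.

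The libraries differed in the contractile share of their cells, which chose them, so 105 N-PRα-KO cells within the WT range were also compared, a choice made after seeing the data. In these the contractile list's median at 20 CPM was 0.21, against 0.88 at 20 CPM over all N-PRα-KO cells. Myl9 then had a log2 ratio of 0.51 (interval 0.19 to 0.84), Myl6 of 0.68, Tpm1 of 0.49, Flna of 1.12 (interval 0.62 to 1.67), Itga7 of 1.38, Cald1 of -0.46 and Vcl of -0.94. Acta2, Myh11 and Tagln were matched by the choice of cells, and their ratios went from 1.06, 0.77 and 2.10 to 0.30, 0.28 and 1.34. Eln went from 2.20 to 0.48 (interval 0.05 to 0.96), with all but 1 of the WT UMIs in 1 cell, and Rgs5 from -0.89 to -0.22. Actg2, on 10 WT UMIs, went from 0.14 to -1.39 (interval -2.39 to -0.24). Other contractile genes had ratios under 0 in the matched cells, with intervals that span 0. Tpm2 went from 0.43 to -0.33, Csrp1 from 1.02 to -0.03, Nexn from 0.55 to -0.08 and Actn1 from 0.33 to -0.06. The ratios of Flna, Itga7 and Cald1 moved little, while those of Eln and Rgs5 were closer to 0 in the matched cells. Those of Vim (-0.57 to -1.19), Fos (-1.66 to -2.56) and Jun (-1.58 to -2.15) moved further from 0.

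**Figure D5:**
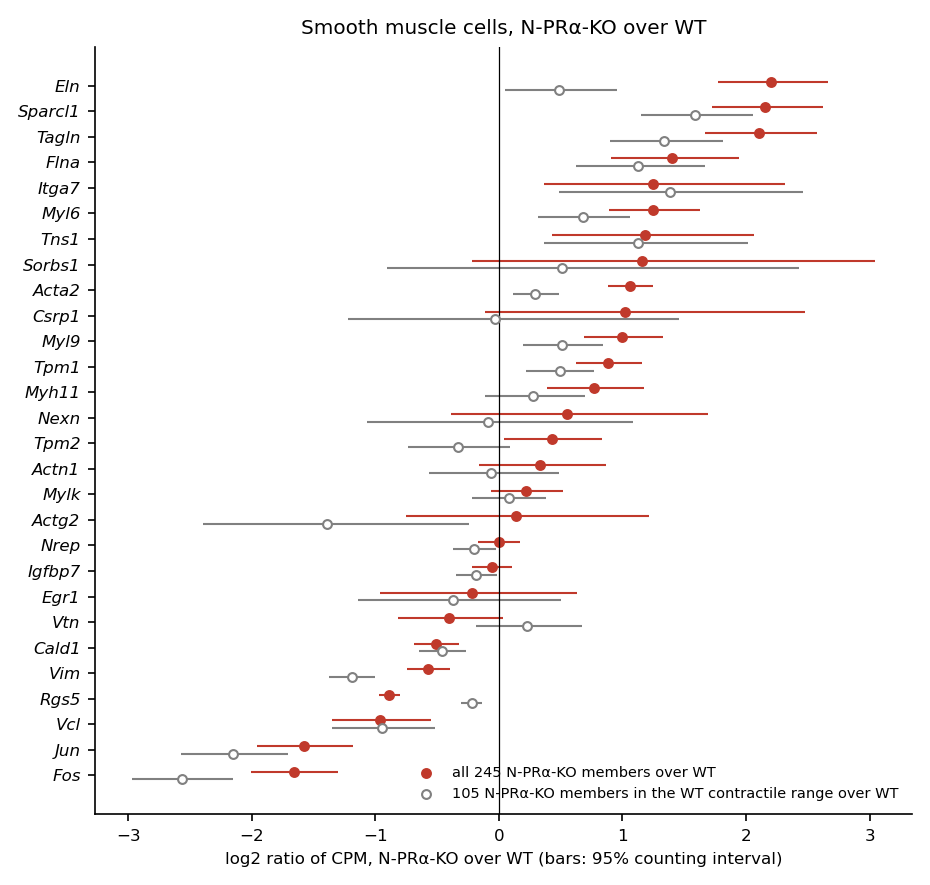
Log2 ratios of N-PRα-KO over WT smooth muscle cells for contractile and other named genes, over all 245 N-PRα-KO cells and over the 105 within the WT contractile range, with 95% counting intervals. Most contractile genes lie above 0 over all cells, Actg2 lies at -1.39 in the matched cells, and Fos, Jun, Vim, Cald1 and Vcl lie below 0 in both.

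Immediate early genes are switched on within minutes by many stimuli. They were lower in N-PRα-KO cells for 12 of 13 members (median -1.51), beside 59.3% of all genes. The same members had medians of -0.96, -0.79 and -1.90 in pericytes, endothelial cells and fibroblasts. Fos was at 561 CPM against 1775 (interval 1398 to 2221), with 27 of the 76 WT UMIs in 1 cell, Jun at 484 against 1448, Zfp36 at 337 against 957 and the heat shock gene Hspa1b at 471 against 2008. Hspa1b has a near-identical copy, Hspa1a, and reads may be split between them. Genes of dedifferentiated smooth muscle were lower for 6 of 6 members (median -0.99; -0.84, -0.61 and -0.33 in the other classes), with Vim at 4484 against 6679 CPM and Tpm4 at 887 against 2055. Division genes were lower for 3 of 3 (median -2.44), but 7 of 9 WT Mki67 UMIs came from 1 cell.

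Receptor, Notch and calcium genes had medians closer to 0 between genotypes. Receptor genes were higher for 3 of 7 members (median -0.38), Notch genes for 2 of 8 (median -0.47) and calcium genes for 7 of 9 (median 0.27). Over all genes at 100 CPM or more 40.7% were higher and the median was -0.27, so the receptor genes lay near that share. Notch3 itself was at 1545 against 981 CPM (0.66, interval 0.22 to 1.13). Npy1r was at 452 against 163 (7 UMIs) and Htr1b at 52.6 against 210.2 (9 UMIs). Kcnk3 had 319 UMIs in N-PRα-KO cells and 0 in WT cells. With the WT count set to the floor of 3 UMIs it was 3.52-fold higher, a ratio that is not a lower bound. Nid1, which joins laminin to collagen IV, was lower at 676 against 2545 CPM (-1.91, interval -2.20 to -1.61), with -0.89 in pericytes. PDGF and TGF-beta genes had no settled direction: 4 of 7 were higher (median 0.43), the median was -0.09 with the GC trend described below removed, and over the 16 members at 20 CPM it was -0.43, with 10 of them lower. The same 7 members had medians of -0.52, -0.31 and -0.19 in pericytes, endothelial cells and fibroblasts. Glycolytic enzymes were higher for 6 of 8 (median 0.66; 0.52, 0.81 and 0.30 in these classes), and at 20 CPM their median of 0.30 became -0.28 with the GC trend removed. At 20 CPM the calcium median was 0.10, and -0.20 with that trend removed.

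Ttr, Cst3, Lgals1 and Apoe, among the genes with the highest ratios, had ratios above 0 in the other classes too. Ttr, the choroid plexus gene, was at 3157 against 93.4 CPM (log2 ratio 5.08), with 3.57, 4.47 and 3.85 in pericytes, endothelial cells and fibroblasts. Cst3, cystatin C, had 3.81 against 3.70, 3.62 and 3.11, and Lgals1, galectin 1, 3.88 against 3.35, 2.92 and 3.77. Apoe had 3.04 against 2.89, 3.01 and 0.62. Crip2, a LIM protein, had 2 WT UMIs and a ratio of 3.39 (interval 1.53 to 6.44). Among the genes named for their ratio or level, Igfbp4, Plpp3 and Sparcl1 had ratios in smooth muscle cells more than 1 log2 unit above those of the other 3 classes, a margin chosen after the values were seen. Igfbp4, an IGF-binding protein, had 1145 UMIs (886 CPM) against 1 WT UMI, a log2 ratio of 5.25 (interval 2.76 to 10.55), with 0.17, -0.01 and 0.99 in the other classes. Plpp3, a lipid phosphatase, had 3.13 against 1.28, 0.44 and -0.11, on 3 WT UMIs. These 2 ratios were taken over all N-PRα-KO cells, whose contractile shares reach above those of the WT cells. Igfbp4 was at 1588 CPM in sub-cluster 1, with the highest median contractile share, and 127 in sub-cluster 4, with the lowest. Plpp3 was at 699.8 and 489 CPM there. Sparcl1, a matricellular protein, was at 4476 against 1004 CPM (2.16, interval 1.72 to 2.62), with 0.17, 0.49 and 1.07 in the other classes and 1.59 in the matched cells. The difference between classes was not tested. The lowest ratios (Agbl2, Nts, Cxcl1, Cenpe, Zfp111, Gmnn, Ulbp1, Kif20a, Myc, Shcbp1, Dkk2 and Foxm1) rested on 3 to 15 WT UMIs each, and 13 of the 15 of Cxcl1 lay in 1 cell.

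A gene's GC content moved with the genotype ratio in each class. Over 727 genes in smooth muscle cells Spearman's rank correlation between the GC content of the last 500 transcript bases and the ratio was 0.38, and the median ratio was -0.79 in the GC-poorest 20% of genes and 0.14 in the richest 20%. This correlation was 0.36 in pericytes, 0.52 in endothelial cells and 0.49 in fibroblasts. With this trend removed the contractile median was 0.54 and the immediate early median -1.45. Depth and the pipeline version also differed between the libraries, and their part in these differences was not tested.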

How the data were processed

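The authors deposited 1 table of molecule counts per cell for each library, made with the BD Rhapsody WTA Analysis Pipeline 1.10 (N-PRα-KO) or 1.10.1 (WT) and GENCODE M19 on GRCm38, per the file headers; the submitters' processing notes also name mm10. For the aligner, the name was not given in the sources used here. The counts are UMIs after the pipeline's own correction, and they were used as deposited.

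Smooth muscle cells were chosen by the rule given above, and their choice, the gene lists and the named genes were made with earlier results of these data known. Pericytes were cells under the contractile minimum with at least 0.2% of UMIs from Kcnj8, Abcc9, Vtn and Higd1b. Pericytes also met the rule's limits on other cell types. Endothelial cells and fibroblasts held at least 0.5% of the endothelial or collagen genes of the rule. Endothelial cells also held under 0.2% of Acta2, Myh11 and Tagln, under 0.2% of the pericyte genes, and met the collagen and ependymal limits. Fibroblasts held under 0.5% of Acta2, Myh11 and Tagln and met the endothelial and ependymal limits. UMIs were summed per library and class and scaled to counts per 1000000 UMIs (CPM). With 1 library per genotype no test was run. Ratios are log2 ratios of CPM with exact conditional intervals, levels have exact Poisson and shares exact Clopper-Pearson intervals (95%), and counts under 3 UMIs were set to 3 unless the UMIs behind a ratio are given. UMIs of cells in 1 library are not replicate measurements, so all intervals cover counting error only. Lists were counted over genes at 20 CPM or more in either group, or at 100 CPM where stated. Named genes were the 12 with the highest and the 12 with the lowest ratio at 50 CPM or more, without mitochondrial, ribosomal protein, haemoglobin, predicted and sex-linked marker genes and, between genotypes, without genes over 3 times higher in another class. To these came the 15 genes with most UMIs, the 4 members of each list with the largest ratio and every receptor of the list. Other list members, and the genes named along the contractile gradient, were picked after their values were seen.

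Scrublet called 10 cells in the N-PRα-KO library (0.238%, too few for the caller to have worked) and 174 in the WT library (1.73%), none of them a smooth muscle cell, and none was removed. To compare shares of cells with a UMI, cells were thinned to 2000 UMIs, which left out 0 N-PRα-KO and 4 WT smooth muscle cells. Sub-clusters came from Leiden clustering on 1000 variable genes without the rule's genes, 10 components and 15 neighbours, at resolutions of 0.6, 0.3 and 1, and their leading genes had at least 100 CPM and 20 UMIs. Gene positions are from GENCODE M21 on the same build, and promoter windows from RefSeq (GRCm38.p6). Alternatives were other cut-offs, scales and floors. Added after seeing the data were N-PRα-KO cells within the WT contractile range, a pericyte minimum of 0.4%, and leaving out cells with over 0.5% of microglial, endothelial or choroid genes. The scripts were checked on simulated data. Tools were Python 3.11.15, numpy 2.4.6, scipy 1.17.1, pandas 2.3.3, scanpy 1.11.5, leidenalg 0.10.2 and matplotlib 3.10.9.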

Additional observations from a re-analysis of the deposited data

How the results depend on the processing

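The share of smooth muscle cells in the N-PRα-KO library was 2.70% (67 cells) with a mitochondrial limit of 15%, 4.69% (197 cells) with a contractile minimum of 1% and 6.63% (278 cells) without the limits on other cell types. In the WT library it was 0.0432% (3 cells) with the mitochondrial limit of 15%, 0.0199% (2 cells) with the minimum of 1% and 0.238% (24 cells) with a minimum of 0.25%. With the mitochondrial limit of 15% the contractile median over pericytes was 1.68, and the contractile median of N-PRα-KO over WT at 20 CPM was -0.51 against 0.88, on 3 WT cells. The cause was not tested. The receptor median over pericytes was -0.46 at 100 CPM. The sign of a list's median differed from the reported setting in 12 of 175 alternatives over pericytes, in 7 of 16 lists (channel, receptor, Notch, elastic fibre, immediate early, division and glycolysis), and in 16 of 176 between genotypes at 20 CPM, in 7 of 16 lists (contractile, calcium, channel, tone signalling, PDGF and TGF-beta, basement membrane and glycolysis). Without cells over 0.5% of other cells' markers the contractile median over pericytes was 2.31. A genotype comparison at a contractile minimum of 1% was not run, since it leaves 2 WT cells. No paired analysis was possible because each genotype had 1 library, and no replicate could be left out for the same reason. The 42822 WT UMIs limit every genotype ratio.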
